A study of Mus musculus with 10 samples.

Results

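Proteasome genes were compared between E11.5 and E17.5 in epithelial cells from the tips of the growing mouse airway. All genes were taken whose symbol begins with Psm, a letter from a to g and a number, and that a probe set of the array names as its only gene. *Psmb8* was left out by the same rule. This gave 47 genes among the 17813 measured. Of these, 45 encode proteasome subunits, activators, inhibitors or assembly chaperones. The other 2 share the prefix only: *Psmc3ip* encodes a protein of meiotic recombination and *Psme3ip1* a protein that binds the activator PSME3. *Psmb9* and *Psme2* were not analysed here. Each gene rests on 1 probe set.

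RNA was measured on 10 Affymetrix arrays, 5 per stage. The E11.5 tips were dissected by hand after dispase, and the E17.5 cells were sorted as GFP+ cells after trypsin. Both stages carry *Id2-CreER* and *Rosa26R-fGFP*, and tamoxifen was given to the mothers at E16.5 for the older stage, at 150 μg per gram of body weight. In these embryos Cre acts in cells that express *Id2*, so GFP marks the labelled tip cells and a small number of their descendants. Stage, isolation and tamoxifen therefore cannot be told apart. Replicates are labelled as biological, but whether each held pooled embryos or its own litter was not stated in the texts read. The p-values measure the spread between these arrays.

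The proteasome breaks down proteins that carry ubiquitin chains. Its 20S core is a barrel of alpha and beta rings, with the cutting sites on the beta subunits, and the 19S regulatory particle caps it, binds ubiquitin, unfolds the substrate with a ring of ATPases and feeds it in. Interferon induces alternative beta subunits and the PA28 activator, which favour peptides for presentation on MHC class I. In every dividing or secreting cell, including the lung epithelium, the complex removes misfolded and short-lived proteins.

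The arrays bore out the labels in part. *Epcam* and *Cdh1*, epithelial adhesion genes, had mean log2 signals of 11.43 and 12.72 at E11.5 and 13.34 and 13.36 at E17.5. Of 13 tip and epithelial markers, 6 were higher, 4 were lower (*Cldn6*, *Etv5*, *Foxp2* and *Esrp1*, with log2 differences of -1.54, -1.35, -0.72 and -0.23) and *Sox9*, *Nkx2-1* and *Cldn7* were not called. Of 10 alveolar type 2 markers, 9 were higher. *Slc34a2*, a phosphate transporter of these cells, was at 4.28 and 13.54. *Lpcat1*, an enzyme of surfactant lipid synthesis, went against the rest of that list, from 7.90 to 3.17. This is the RNA signal of 1 probe set. In the paper's staining, the protein was robust in tips from E16.5 and higher still in differentiating type 2 cells. Markers of other cells moved too. Of 19 leukocyte markers, 17 were higher at E17.5 and none was lower, with a mean log2 signal of 5.45 to 6.18 on the younger arrays and 8.87 to 9.61 on the older ones. The defining marker *Ptprc* rose from 4.25 to 8.85. Of 13 endothelial markers, 11 were higher (6.90 or less at E11.5, 9.03 or more at E17.5, with *Pecam1* at 5.44 and 10.71), and all 16 immediate early genes were higher (means of 7.63 to 7.79 and of 12.24 to 12.50). Of 6 erythroid markers, 4 were lower, *Alas2* was higher (log2 difference 1.48) and *Epor* was not called. The means of all 6 were 8.14 to 9.42 and then 5.43 to 6.14. Of 13 mesenchymal markers, 5 were higher and 4 lower. *Col1a1*, a fibrillar collagen, was at 11.22 and 11.79 (not called). The part of other cells in the differences below was not tested. In such bulk samples, fewer cells of a type and less RNA per cell cannot be told apart.

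Some arrays stood apart within their stage. E11.5 replicate 1 gave the lowest E11.5 signal for 33 of the 47 members (70.2%), against 26.9% of all genes, although its array median of 7.14 was the highest of its stage. E17.5 replicate 3 gave the lowest E17.5 signal for 23 members (48.9%, against 19.7%). On E11.5 replicate 1 the mean of 13 tip and epithelial markers was also the lowest of its stage (11.73, against 11.98 to 12.07), and the mean of the leukocyte markers the highest (6.18).

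By their probe sets, 1 per gene, the 20S and 19S subunits did not move as 1 unit. In limma, 16 of the 47 genes were higher and 27 lower at E17.5, at a Benjamini-Hochberg adjusted p under 0.05 over all genes, and 4 did not pass. These are 34.0% and 57.4% of the members, and among all genes tested 36.9% were higher and 31.5% were lower. At least 2-fold changes were seen in 14 higher and 8 lower members (29.8% and 17.0%), against 24.2% and 16.3% of all genes. For 16 members every E17.5 array lay above every E11.5 array, and for 23 every E17.5 array lay below (32.3% and 26.3% of all genes). Without E11.5 replicate 1, 16 members were higher and 27 lower. Of the 27, 26 were also lower with all arrays, as *Psmb4* was lost and *Psmd10* gained. Without E17.5 replicate 3, the counts were again 16 and 27. The median log2 difference (E17.5 minus E11.5) was -0.47 over the 47 genes and 0.03 over all genes. These shares describe the list, with no test of it. The upper quartile of the signals was 9.42 to 9.46 on the E11.5 arrays and 10 to 10.04 on the E17.5 arrays. Quantile normalization between arrays moved the log2 difference of 45 members down by 0.29 to 0.61, and those of *Psma8* and *Psmb11* up by less. It changed 25 of the 43 called differences by over 1.5 times and turned none of them, so that sizes below are those on the deposited scale.

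Sequences upstream of the genes are shown for the largest rise and the largest fall among the 19S ATPases, and for a non-ATPase subunit of each direction. They are the 250 bases before the RefSeq start (GRCm38.p6), 5′ to 3′ on the gene's strand. Capitals mark matches, on either strand, to CCGGAAG (the core of an ETS factor site), CCAAT (the CCAAT box) or TGACNNNGC (the core of an antioxidant response element, where N is any base).
*Psmc1*, chr12:100109952-100110201, plus strand: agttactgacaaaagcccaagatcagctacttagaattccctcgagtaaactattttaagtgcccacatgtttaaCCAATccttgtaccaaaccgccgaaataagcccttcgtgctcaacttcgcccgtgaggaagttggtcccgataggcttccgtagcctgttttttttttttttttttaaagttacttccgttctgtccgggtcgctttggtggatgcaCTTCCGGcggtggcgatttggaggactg
*Psmd2*, chr16:20651402-20651651, plus strand: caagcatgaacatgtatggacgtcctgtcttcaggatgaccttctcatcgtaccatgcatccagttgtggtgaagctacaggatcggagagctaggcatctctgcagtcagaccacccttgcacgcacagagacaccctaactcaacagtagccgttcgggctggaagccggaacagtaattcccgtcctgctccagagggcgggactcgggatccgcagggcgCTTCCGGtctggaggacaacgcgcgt
*Psmc6*, chr14:45329574-45329823, plus strand: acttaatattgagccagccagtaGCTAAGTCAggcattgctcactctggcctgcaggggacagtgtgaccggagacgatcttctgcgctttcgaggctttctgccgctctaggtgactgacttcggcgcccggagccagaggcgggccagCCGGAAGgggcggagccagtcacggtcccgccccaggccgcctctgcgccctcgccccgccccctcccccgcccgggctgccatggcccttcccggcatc
*Psmd6*, chr14:14120946-14121195, minus strand: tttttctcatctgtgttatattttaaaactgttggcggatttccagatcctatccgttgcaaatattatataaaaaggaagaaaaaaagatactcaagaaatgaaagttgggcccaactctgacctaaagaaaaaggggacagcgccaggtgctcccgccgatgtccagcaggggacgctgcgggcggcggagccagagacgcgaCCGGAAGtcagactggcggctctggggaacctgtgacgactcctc
All 4 hold the ETS letters, and *Psmc1* and *Psmd2* have them within 28 bases of the start. Promoters were listed for 39 of the 47 genes, all but *Psma8*, *Psmb1*, *Psmb2*, *Psmb7*, *Psmc3*, *Psmd3*, *Psmd7* and *Psmg2*. Of these 39, 13 (33.3%) hold CCGGAAG, against 11.8% of 14167 tested genes with a listed promoter. Of the 13, 8 rose and 5 fell, beside 16 higher and 27 lower among all 47 members. All 16 higher members have a listed promoter. Of the members without one, *Psma8* was not called and the others were lower, so the 47 hold a larger share of falls than the 39. A link between these letters and the direction of change was not tested. TGACNNNGC was found in 5 (12.8%, against 13.5%), GAAANNGAA, an interferon response element, in 3 (7.69%, against 7.5%) and CCAAT in 15 (38.5%, against 39.2%). A match is a stretch of letters and not a site shown to be bound.

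The beta ring of the core fell. All 7 standard beta subunits were called lower at E17.5, and their median log2 difference was -0.53. *Psmb5*, *Psmb6* and *Psmb7* carry the cutting sites of the standard core. *Psmb5*, the chymotrypsin-like subunit, had log2 signals of 13.27, 13.58, 13.51, 13.57 and 13.48 on the E11.5 arrays and 12.99, 12.82, 12.92, 12.95 and 13.06 on the E17.5 arrays. The stages did not overlap, and the log2 signal of *Psmb5* fell by 0.53 (standard error 0.09, adjusted p = 0.00015 from limma). *Psmb7*, the trypsin-like subunit, was at 12.56, 12.72, 12.77, 12.77 and 12.72, then at 12.34, 12.30, 12.04, 12.15 and 12.32. It fell by 0.47 with no overlap (adjusted p = 0.00038). *Psmb6*, the caspase-like subunit, was at 13.47 to 13.83 and then at 13.16 to 13.55. Its arrays overlapped, and it fell by 0.36 (adjusted p = 0.0083). After quantile normalization the 7 beta subunits had a median of -0.94, with *Psmb5*, *Psmb7* and *Psmb6* at -0.94, -0.93 and -0.74.

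Of the structural beta subunits, *Psmb1* changed most. It read 10.17, 10.26, 10.32, 10.26 and 10.17 at E11.5 and 7.14, 6.70, 7.08, 7.0 and 7.17 at E17.5. It was 9.30-fold lower (log2 difference -3.22, standard error 0.10, adjusted p = 3.9e-11 from limma), on a probe set of the _x type, which can match other transcripts. *Psmb3* was 2.03-fold lower with no overlap, and *Psmb2* fell by 0.56 with overlapping arrays. *Psmb4* fell by 0.19 (adjusted p = 0.048), and lost its call without E11.5 replicate 1, 2, 3 or 4 or E17.5 replicate 1, 2 or 5 (adjusted p = 0.075 to 0.1). *Psmb11*, the beta subunit of the thymic cortex, was at 3.88 to 4.14 and 3.77 to 4.33 and was not called.

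The alpha ring, which gates the barrel, was split. Of its 7 standard subunits 3 rose and 4 fell, and *Psma8*, the alpha subunit of the testis, did not pass (log2 difference -0.08, 95% interval -0.29 to 0.13). *Psma1* was at 8.01, 8.09, 8.15, 7.99 and 8.19 on the E11.5 arrays and at 12.14, 12.04, 11.95, 12.17 and 12.18 on the E17.5 arrays. Every E17.5 array was far above every E11.5 array, and *Psma1* rose 16.1-fold (log2 difference 4.01, standard error 0.08, adjusted p = 1.7e-12 from limma). *Psma6* rose 7.73-fold and *Psma5* rose 2.94-fold, again with no overlap. *Psma3* went the other way, from 9.77, 10.30, 10.03, 10.18 and 10.43 to 6.23, 5.84, 6.41, 6.07 and 5.52. Its log2 signal fell by 4.13 (adjusted p = 5.9e-10), so that probe sets of the alpha ring held changes of similar size in both directions. Each subunit rests on 1 probe set, and the part of the probe sets in such opposite changes was not tested. *Psma7* fell by 0.95 and *Psma2* by 0.26 with no overlap, and *Psma4* fell by 0.51 with overlap. Over all 16 core genes, 3 were higher, 11 were lower and the median log2 difference was -0.42 (-0.84 after quantile normalization between arrays). Without *Psma8* and *Psmb11*, which had low signals at both stages, the median on the deposited scale was -0.49.

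**Figure D1:**
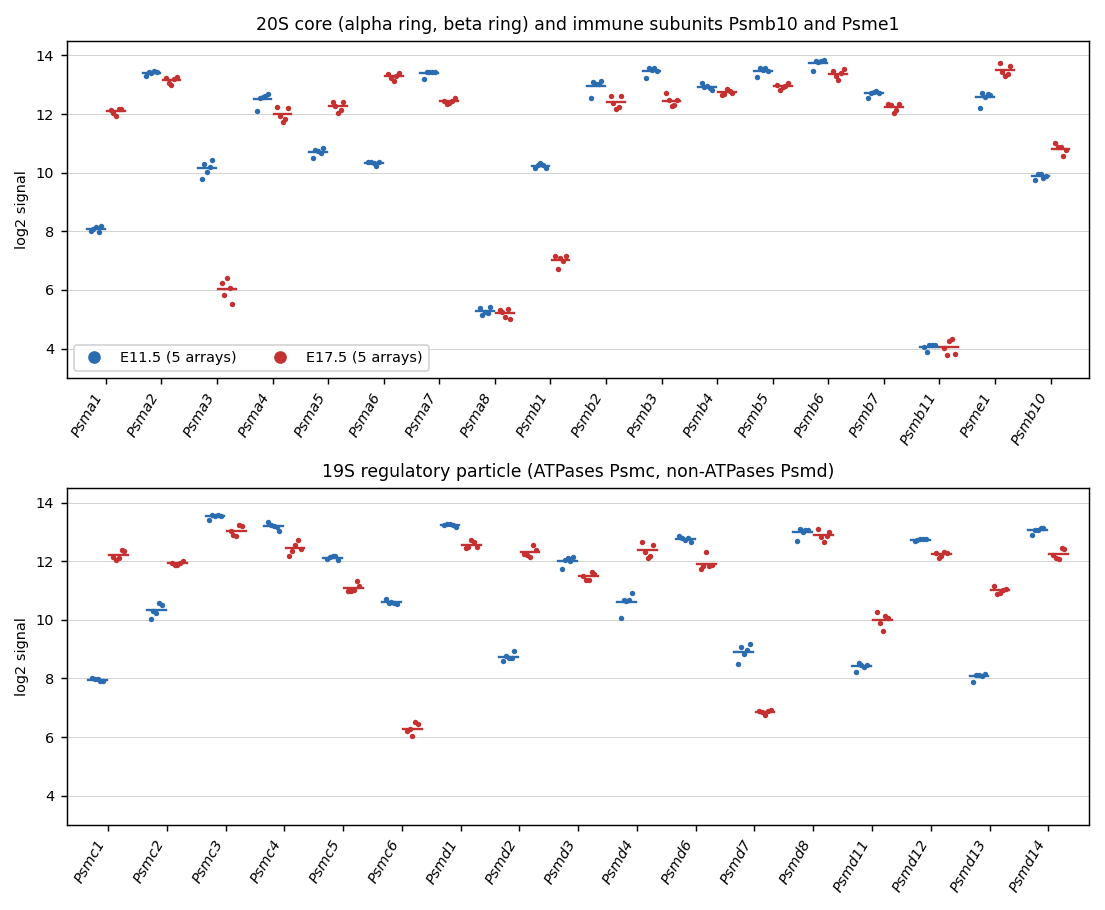
Log2 signal (y axis) of each core, immune (upper panel) and regulatory subunit (lower panel) for 5 E11.5 arrays (blue) and 5 E17.5 arrays (red), where a short line marks each mean. *Psma1* and *Psmc1* lie about 4 units higher at E17.5 and *Psma3* and *Psmc6* about 4 units lower, while most of the other subunits lie within 1 unit.

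The 19S regulatory particle was split as well. Of 17 genes, 6 were higher, 10 were lower and *Psmd8* was not called (log2 difference -0.10, 95% interval -0.35 to 0.14). The median was -0.50 (-0.95 after quantile normalization, where *Psmd8* was called lower). The 6 ATPases form the ring that unfolds substrates, and 2 of them rose while 4 fell. *Psmc1* was at 8.0, 7.97, 7.97, 7.91 and 7.92 at E11.5 and at 12.13, 12.05, 12.11, 12.40 and 12.36 at E17.5. It rose 19.1-fold with no overlap (log2 difference 4.26, standard error 0.09, adjusted p = 2.1e-12 from limma). *Psmc6* was at 10.72, 10.59, 10.59, 10.59 and 10.53, and then at 6.21, 6.27, 6.02, 6.51 and 6.44. It was 19.9-fold lower (log2 difference -4.31, standard error 0.10, adjusted p = 4.5e-12), the largest fall of the 47 genes. Both genes encode ATPases of the same ring, and their upstream sequences stand above. Each rests on 1 probe set, and the part of the probe sets in these opposite changes was not tested. *Psmc2* rose 3.01-fold, and *Psmc5* (2.04-fold), *Psmc4* (1.69-fold) and *Psmc3* (1.40-fold) were lower, each with no overlap.

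Among the non-ATPase subunits, the base and the lid can be told apart. In the base, *Psmd2*, a scaffold that docks ubiquitin carriers, was at 8.60, 8.76, 8.70, 8.69 and 8.92 and rose to 12.25, 12.22, 12.13, 12.54 and 12.37. This was an 11.8-fold rise (adjusted p = 1.6e-11 from limma). *Psmd4*, a ubiquitin receptor, rose 3.42-fold, and *Psmd1*, the other scaffold, fell by 0.68 on the log2 scale. In the lid, 2 of 8 genes were higher, 5 were lower and *Psmd8* was not called. *Psmd13* rose 7.63-fold and *Psmd11* 2.99-fold. *Psmd14*, the deubiquitinase that takes the ubiquitin chain off the substrate, was at 12.88 to 13.13 and then at 12.09 to 12.44, and fell by 0.80 with no overlap. Its partner *Psmd7* was 4.14-fold lower, and *Psmd6*, *Psmd3* and *Psmd12* fell by 0.85, 0.52 and 0.50. In these genes too the stages did not overlap.

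**Figure D2:**
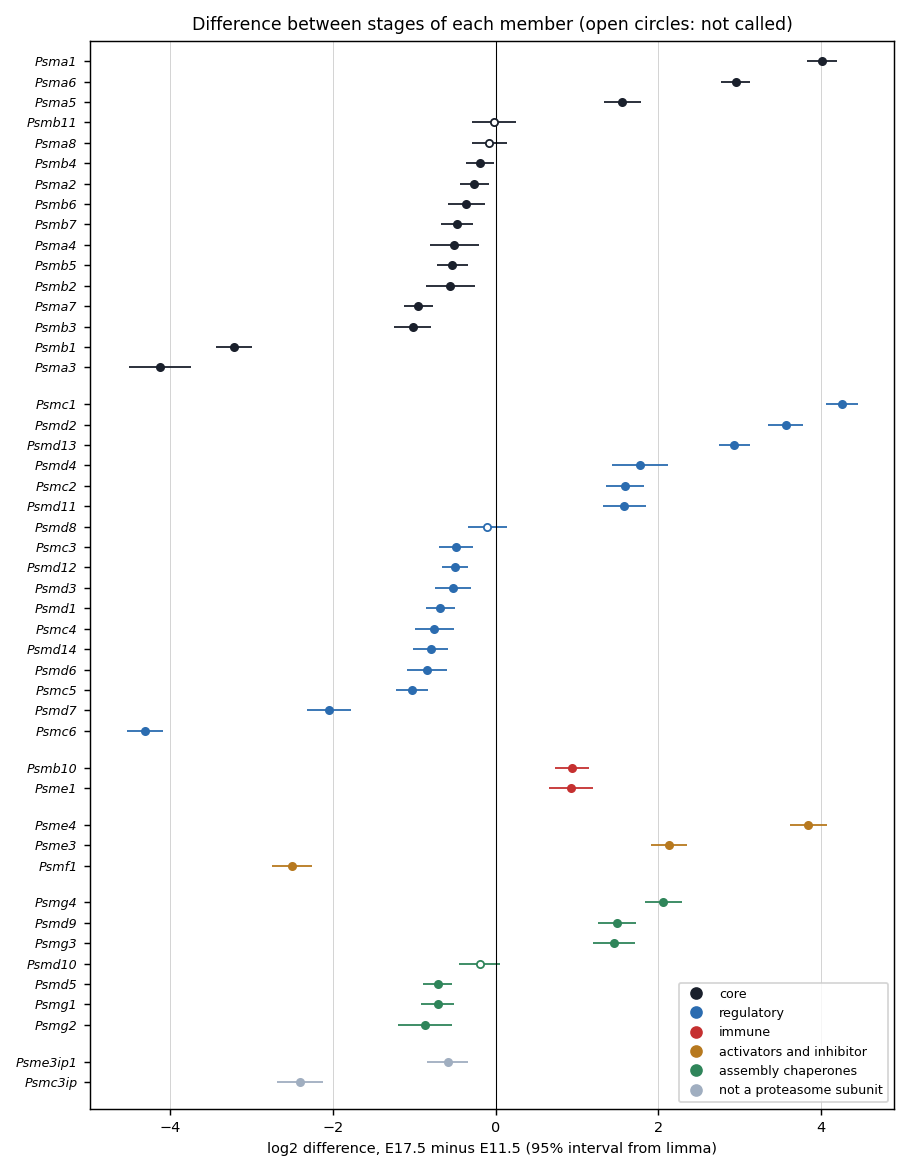
Log2 difference between stages (x axis, E17.5 minus E11.5) of each of the 47 genes (y axis), with the 95% interval from limma and colours by class. Filled points were called and open points were not. *Psmc1* at 4.26 and *Psmc6* at -4.31 mark the ends, and both immune subunits stand near 0.93.

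The immune subunits rose while most of the core fell. *Psmb10*, the immune form of the trypsin-like subunit, was at 9.75, 9.96, 9.96, 9.83 and 9.89 on the E11.5 arrays and at 11.01, 10.88, 10.86, 10.57 and 10.78 on the E17.5 arrays. It rose 1.92-fold with no overlap (log2 difference 0.94, standard error 0.09, adjusted p = 2e-06 from limma). *Psme1*, the alpha subunit of the PA28 activator, was at 12.22, 12.72, 12.59, 12.67 and 12.65 and then at 13.74, 13.43, 13.31, 13.35 and 13.65. It rose 1.90-fold with no overlap (log2 difference 0.93, adjusted p = 2.4e-05). Their median of 0.93 became 0.43 after quantile normalization between arrays, with *Psmb10* at 0.33 and *Psme1* at 0.53, both still called as higher. The leukocyte markers, which also rose, were lowest among the E17.5 arrays on replicate 4 (mean 8.87). *Psmb10* was lowest there too (10.57), while *Psme1* was lowest on replicate 3 (13.31), where that mean was 9.60. Replicate 3 gave the lowest E17.5 signal for 48.9% of the members, against 19.7% of all genes. The part of leukocytes in both rises was not tested.

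Immune and other alternative subunits were set against the standard subunit whose place they take, or the related activator, within each array. The offset between 2 probe sets has no meaning, and only its change between stages is read. The 3 pairs with data gave, in a two-sided exact permutation test over the 10 arrays, p = 0.00794 each, the smallest p that 252 splits allow (also 0.00794 after adjustment over the 3 pairs). *Psmb10* against *Psmb7* rose by 1.42 on the log2 scale (2.67-fold), from -2.83 ± 0.07 (SD, n = 5 arrays) to -1.41 ± 0.16 (SD, n = 5). All 5 E17.5 arrays lay above the E11.5 arrays. This follows from the rise of *Psmb10* and the fall of *Psmb7*, each with no overlap. The p of this pair was therefore fixed in advance and restates those changes. *Psme1* against *Psme3* fell by 1.2 (2.30-fold), from 3.72 ± 0.17 to 2.52 ± 0.11 (SD, n = 5 each). Although *Psme1* rose, its relative *Psme3* rose more. The third pair, *Psma8* against *Psma7*, moved by 0.87, from -8.11 ± 0.19 to -7.24 ± 0.19 (SD, n = 5 each). *Psma8* had a low signal at both stages and was not called, so that this value restates the fall of *Psma7* and says nothing of *Psma8*.

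**Figure D3:**
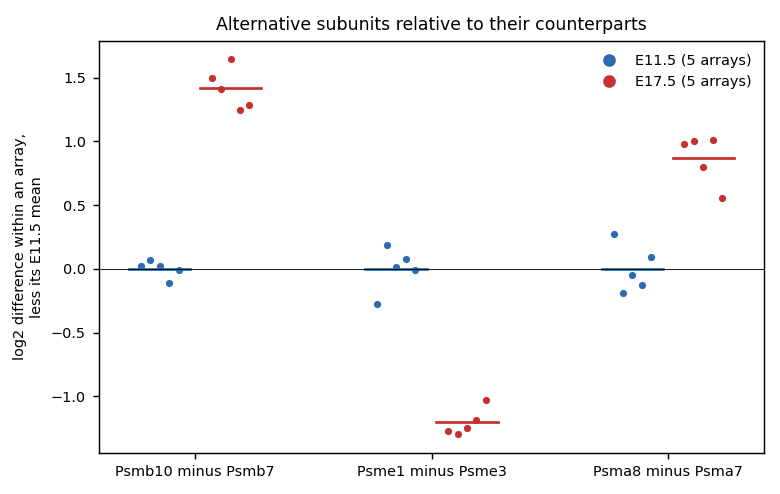
Log2 difference of 2 genes within an array (y axis), less the mean of the E11.5 arrays, for 3 pairs (x axis), with 1 point per array (E11.5 blue, E17.5 red) and a short line marking each mean. The E17.5 arrays stand 1.42 higher for *Psmb10* minus *Psmb7*, 1.2 lower for *Psme1* minus *Psme3* and 0.87 higher for *Psma8* minus *Psma7*, with no overlap.

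Of the other caps, both activators rose and the inhibitor fell. *Psme3*, the nuclear PA28 gamma activator, was at 8.77, 8.82, 8.85, 8.87 and 8.94 and rose 4.38-fold, to between 10.82 and 11.29 (adjusted p = 1.4e-09 from limma). *Psme4*, the PA200 activator, was at 8.39 to 8.87 and then at 12.31 to 12.61, a 14.3-fold rise on a probe set of the _s type, which can match other transcripts. *Psmf1*, the inhibitor PI31, was at 8.88 to 9.21 and then at 6.26 to 6.70, which is 5.69-fold lower (adjusted p = 9.8e-10). The stages did not overlap for any of the 3 genes.

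Of the assembly chaperones, which put the rings together and then leave or are degraded, 3 of 7 genes were higher and 3 lower. Among all genes tested, 36.9% were higher and 31.5% were lower. *Psmg1* and *Psmg2* encode 1 heterodimer, PAC1 with PAC2, and both fell, by 0.71 and 0.87 on the log2 scale. *Psmg3* and *Psmg4* encode the other, PAC3 with PAC4, and both rose, 2.74-fold and 4.17-fold. *Psmg4* was at 7.37, 7.73, 7.48, 7.64 and 7.41, then at 9.57, 9.58, 9.76, 9.64 and 9.37 (adjusted p = 2.6e-09 from limma). Of the chaperones of the 19S base, *Psmd9* rose 2.81-fold, *Psmd5* fell by 0.71, and *Psmd10*, also known as gankyrin, had overlapping arrays and a log2 difference of -0.19 (95% interval -0.45 to 0.06). *Psmd10* was called lower after quantile normalization (-0.78), median centring (-0.33) and with array weights (-0.27), and also without E11.5 replicate 1 (log2 difference -0.27, adjusted p = 0.048) and without E17.5 replicate 1 (adjusted p = 0.036). Of the 2 genes that share the prefix only, *Psmc3ip* was 5.28-fold lower and *Psme3ip1* 1.5-fold lower, each with no overlap.

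Among the members with the brightest probe sets, differences were small. Of 17 members with a mean log2 signal of 12 or more over the 10 arrays, 1 was higher, 15 were lower and 1 was at least 2-fold changed. Their differences ran from -1.02 to 0.93, with a median of -0.51. Of all 798 genes with such a mean, 308 were higher, 287 were lower and 178 were at least 2-fold changed. Of the other 30 members, 15 were higher, 12 were lower and 21 were at least 2-fold changed, with differences from -4.31 to 4.26. Of all 17015 genes with a mean under 12, 6260 were higher, 5322 were lower and 7031 were at least 2-fold changed. The mean over both stages is itself lowered by a large change in either direction, as for *Psma1* and *Psmc1*, which were above 12 at E17.5 and near 8 at E11.5. The split at 12 was chosen after the values were seen, and it is a description only. Over all genes, the median size of the log2 difference was 0.17 for a mean under 5 and 1.11 from 5 to 8. It was 1.2 from 8 to 10, 0.88 from 10 to 12 and 0.49 above, and so fell with brightness from 8 upwards. From 8 to 10, from 10 to 12 and above lay 10, 16 and 17 of the members. Probe sets of the _a, _s or _x type served 15 members, of which 5 were higher and 9 lower, and without them 11 of 32 were higher and 18 were lower.

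**Figure D4:**
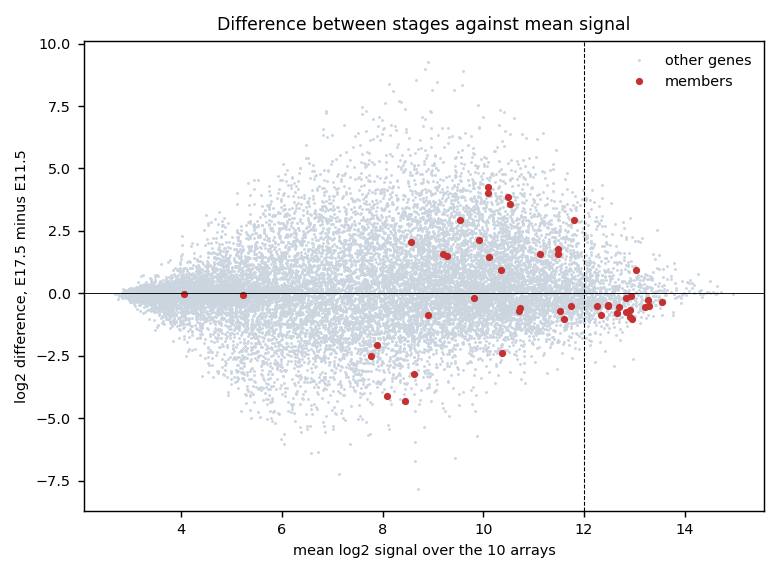
Log2 difference between stages (y axis) against the mean log2 signal over the 10 arrays (x axis) for the 47 members (red) and all other genes (grey), with a dashed line at 12. Members right of the line lie between -1.02 and 0.93, and those left of it between -4.31 and 4.26.

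Partners of the proteasome were mixed too. Of 8 associated proteins measured, 5 were higher, 2 were lower and *Sem1*, a lid subunit with another prefix, was not called (log2 difference 0.14). *Zfand5*, a ubiquitin-binding activator, rose 14.6-fold and *Txnl1*, a thioredoxin on the 19S cap, rose 14.3-fold. *Ube3c*, a ubiquitin ligase, rose 2.65-fold, *Uchl5*, a deubiquitinase of the cap, 2.07-fold and *Ecpas* 1.37-fold. *Usp14*, the other such deubiquitinase, fell by 0.92 on the log2 scale and *Pomp*, the maturation factor of the core, by 0.33. Of the activating enzymes measured, *Uba7*, which starts the conjugation of ISG15, rose 7.18-fold, *Uba6* 1.63-fold and *Uba3* 1.37-fold, while *Nae1* fell by 0.60. *Uba3* and *Nae1* form 1 enzyme, for NEDD8. Of 11 shuttle factors and partners of the segregase VCP, 3 were higher (*Rad23b* 6.91-fold, *Ubqln1* 2.64-fold and *Ufd1* 1.21-fold), 7 were lower (*Ubqln2* fell by 1.80 and *Nsfl1c* by 0.87) and *Ubqln4* was not called.

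Regulators of proteasome genes, a list that pools activators and repressors, were mostly higher. Of 9 measured, 7 were higher and none was lower (36.9% and 31.5% of all genes), with a median log2 difference of 1.91. *Nfe2l2*, the factor NRF2 that binds antioxidant response elements, rose from 8.68 to 13.04, which is 20.5-fold (adjusted p = 4.9e-12 from limma). *Maff* rose 15.1-fold and *Mafk* 4.57-fold, both small MAF partners of that family, and *Bach1*, a repressor at the same elements, rose 7.38-fold. *Nfe2l1*, which encodes the factor known to raise proteasome genes when the proteasome is inhibited, had a log2 difference of 0.20 (adjusted p = 0.19) and *Mafg* 0.32 (adjusted p = 0.12). *Maff* is also known as an early response gene, and all 16 immediate early genes listed were higher in the same arrays. The part of this in its rise was not tested. Of 12 genes of interferon-gamma response and antigen processing, 11 were higher and *Calr*, a chaperone of the endoplasmic reticulum, fell by 0.69. *Tapbp*, which loads peptides on MHC class I, rose 29.1-fold, *Irf1*, an activator of immunoproteasome genes, 8.16-fold, *Ifngr2* 7.76-fold and *Irf8* 7.57-fold. The median was 2.22 for this list, against 0.93 for both immune subunits.

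Other multi-subunit complexes also had genes called in both directions. Over all genes tested, 36.9% were higher and 31.5% were lower, and these counts are a description only. The COP9 signalosome, which is related in structure to the 19S lid, had 3 of 10 genes higher and 6 lower, with *Cops7a* not called. *Cops3* rose 76.2-fold, *Cops9* 4.76-fold and *Cops6* 4.29-fold, while *Cops5*, its protease, was 7.50-fold lower. Of 7 genes of the chaperonin TRiC, 3 were higher (*Cct8* 18.3-fold, *Cct4* 11.3-fold and *Cct3* 2.97-fold) and 2 were lower (*Cct6a* fell by 1.14 and *Cct5* by 0.58), and *Cct2* and *Cct7* were not called. The median log2 differences were -0.40 and 0.15, beside -0.42 for core (-0.49 without *Psma8* and *Psmb11*) and -0.50 for regulatory subunits. Differences between these complexes were not tested.

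**Figure D5:**
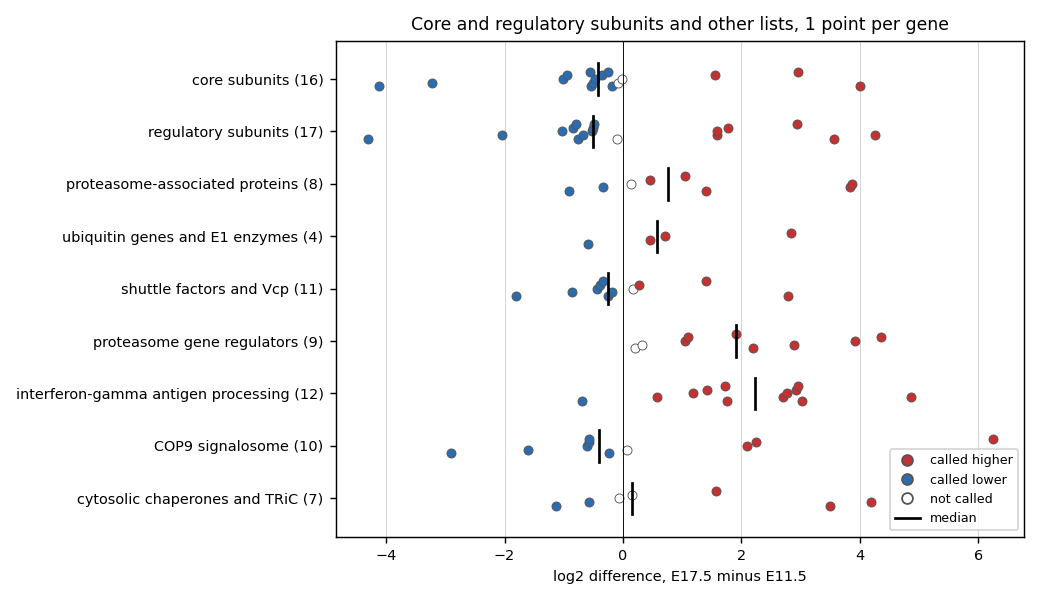
Log2 difference between stages (x axis) of each gene of 9 lists (y axis, with the number of genes measured), in red where called higher, in blue where called lower and in white where not called, with a black bar at the median. Core and regulatory subunits, the shuttle factors with Vcp and the COP9 signalosome have medians below 0 and members on both sides. The regulators and the interferon list have medians of 1.91 and 2.22.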

How the data were processed

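RNA from 5 E11.5 and 5 E17.5 samples was amplified and labelled by the authors with NuGEN Ovation kits and hybridised to Affymetrix whole-genome mouse arrays. The deposited values are log2 signals of 21204 probe sets, made by the authors with Bioconductor in R. For normalization and the choice of probe sets, the method was not given in the sources used here. For arrays, their number limits the precision.

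The platform annotation named 17981 probe sets with 1 gene. The 514 with several genes and the 2709 with none were left out. For the 17813 genes the brightest probe set was used. All 47 members matched RefSeq by Entrez identifier with their symbol. Stages were compared with limma 3.58.1 (lmFit, eBayes) in R 4.3.3, with Benjamini-Hochberg adjustment over all genes, which was tested on simulated data. Intervals are 95%. Pairs of subunits were compared by exact permutation. Of 5 pairs intended, 2 needed *Psmb9* or *Psme2*. Alternatives were other scalings, probe set choices, filters, weights, moderation, the replicate number as a block, and leaving out arrays. Members and lists were chosen with earlier results of these data known. All members could be named, and of other lists up to 4 called genes with the largest change, members needed to name counts of 5 or fewer, and defining markers. Figures used matplotlib 3.10.9.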

Additional observations from a re-analysis of the deposited data

Results flagged for a closer look

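In 22 of 188 groups of 5 arrays checked (47 members and 47 other named genes, at each stage), the highest or lowest array was separated from its neighbour by more than 0.71 of the range of its stage. About 9.4 such cases arise by chance. Of the 22, 15 were E11.5 replicate 1. On E11.5 replicate 1, log2 signals with such a gap were *Psma4* 12.10 (next 12.54), *Psma7* 13.21 (next 13.42), *Psmb2* 12.53 (next 13.02), *Psmb3* 13.25 (next 13.48), *Psmb6* 13.47 (next 13.76) and *Psmb7* 12.56 (next 12.72). On E11.5 replicate 1, log2 signals further included *Psmc3* 13.41 (next 13.54), *Psmd13* 7.89 (next 8.08), *Psmd14* 12.88 (next 13.06), *Psmd8* 12.68 (next 13.01), *Psme1* 12.22 (next 12.59) and *Psmg1* 10.87 (next 11.09). On E11.5 replicate 1, log2 signals further included *Ubqln4* 11.40 (next 11.79), *Cct3* 10.36 (next 10.71) and *Nkx2-1* 8.73 (next 9.49). On E11.5 replicate 5, log2 signals with such a gap were *Psmd1* 13.18 (next 13.25) and *Rad23b* 9.49 (next 9.26). On E17.5 replicate 1, log2 signals with such a gap were *Irf8* 8.01 (next 8.62). On E17.5 replicate 3, log2 signals with such a gap were *Psmd6* 12.32 (next 11.88), *Psmd7* 6.75 (next 6.87) and *Ubqln2* 6.65 (next 7.04). On E17.5 replicate 4, log2 signals with such a gap were *Psme4* 12.61 (next 12.39).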

How the results depend on the processing

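Of 829 values of single members under 18 alternatives, 815 stayed on their side of the threshold, 8 lost and 6 gained a call, and no called member changed sign. *Psmb11*, which was never called, was above 0 under 5 alternatives (at most 0.05). The 14 concern *Psmb4*, *Psmd10* and *Psmd8*. Calls were 16 higher throughout and 26 to 29 lower where all 47 genes were measured. The median log2 difference of core subunits (-0.42) was -0.84 after quantile normalization, that of regulatory subunits (-0.50) was -0.95 after quantile normalization and -0.63 after median centring, and that of immune subunits (0.93) was 0.43 after quantile normalization. The median of all genes was 0.03 as deposited, -0.04 after quantile normalization and -0.10 after median centring. Leaving out 1 array gave 16 higher and 26 to 27 lower members, medians of -0.47 to -0.37 (core), -0.53 to -0.47 (regulatory) and 0.87 to 0.98 (immune), and counterpart changes of 1.36 to 1.46, -1.27 to -1.16 and 0.82 to 0.95. With the replicate number as a block, 16 were higher and 26 lower, as *Psmb4* was not called. Same-numbered arrays did not deviate together (correlations of -0.29 to 0.07). These correlations cannot tell whether samples of the same number shared a batch. The scaling of the deposited values is unknown, and 1 probe set a gene leaves no check within these data.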
